A study of Mus musculus with 18 samples.

Results

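A set of 10 genes of thyroid C cells and of neuroendocrine cells in general was followed through whole mouse larynges: Calca, Calcb, Gfra4, Ret, Insrr, Pnoc, Scg3, Chgb, Ptprn and Sez6l2. They are 10 of the 54532 genes in the deposited count table, and each was found by its gene name. The 10 were chosen by their counts in earlier results on these same libraries, by the fall of most of them in the e-cigarette group and by their relation to Calca. So their levels and fold changes are a description here, with standard errors and without p-values. All 10 passed the filter on low counts.

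The larynges came from male C57BL6/J mice aged 8 to 9 weeks and were sequenced as mRNA in 18 libraries. Of these, 6 came from mice exposed to aerosol of a JUUL e-cigarette with Virginia tobacco flavour, 6 from mice exposed to smoke of 3R4F research cigarettes and 6 from mice kept in room air. Exposure was in a whole-body chamber for 1 h a day on 5 days a week over 4 weeks, and the labels name no transgene, drug or other agent. The labels do not state that each library is 1 animal, so tests measure the spread between these samples, which may be in part technical. Libraries held 16.7 M to 22.5 M counts in the e-cigarette group, 15.9 M to 20.3 M in the smoke group and 15.6 M to 17.1 M in the air group.

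C cells are the neuroendocrine cells of the thyroid gland, which lies against the larynx and can be taken along with it. They secrete calcitonin, a hormone that lowers blood calcium, and store it in dense-core granules whose contents include the granins. The calcitonin gene Calca makes a different product, the neuropeptide CGRP-alpha, in sensory neurons, by joining another exon to the same upstream exons. The receptor tyrosine kinase RET is a well known C cell gene because its activating mutations drive medullary thyroid carcinoma, the tumour of these cells. Calcb makes CGRP-beta, mainly in neurons of the gut wall, and gives no calcitonin.

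The exons that separate these products are shown because the counts are per gene and add them up. Calca lies on the minus strand of chromosome 7 (GRCm38, 114631478 to 114636357) and Calcb on the plus strand of the same chromosome (114718643 to 114723365), 82.3 kb apart. The coding parts below are from the GENCODE M21 annotation of GRCm38, 5′ to 3′ in the direction of the gene. Capitals mark bases in which the CGRP exons of Calca and Calcb differ or are not aligned.

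Calca calcitonin exon, coding part, chr7:114633605-114633785, minus strand: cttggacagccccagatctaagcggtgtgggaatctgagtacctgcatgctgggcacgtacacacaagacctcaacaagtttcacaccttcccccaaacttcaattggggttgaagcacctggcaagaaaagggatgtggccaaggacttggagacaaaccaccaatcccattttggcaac
Calca CGRP exon, coding part, chr7:114632443-114632599, minus strand: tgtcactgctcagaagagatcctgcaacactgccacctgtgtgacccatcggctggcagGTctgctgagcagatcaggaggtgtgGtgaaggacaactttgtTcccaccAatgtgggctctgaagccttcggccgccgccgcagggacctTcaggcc
Calcb CGRP exon, coding part, chr7:114721975-114722134, plus strand: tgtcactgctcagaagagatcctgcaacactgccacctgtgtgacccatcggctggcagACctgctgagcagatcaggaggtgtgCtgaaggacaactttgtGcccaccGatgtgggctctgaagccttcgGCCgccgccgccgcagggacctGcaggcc

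The CGRP exons were identical in 151 of 160 aligned columns (94.4%), while the calcitonin exon was identical to the CGRP exon of Calca in 43.0% and to that of Calcb in 44.0% of aligned columns. Of Calcb, only the transcript Calcb-201 was searched for letters shared with Calca transcripts. The longest shared run was 60 bases, and 11 of the 913 stretches of 50 bases in Calcb-201 also occur in Calca. Reads from such stretches cannot be assigned to 1 of the genes, so a small part of either count is uncertain. The table does not separate calcitonin from CGRP-alpha transcripts of Calca.

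Calca was by far the most abundant of the 10 genes. It stood at 218, 5.99, 244, 2.81, 2.25 and 21.8 counts per 1 M counts of its library (CPM) in e-cigarette libraries 1 to 6. In smoke libraries 1 to 6 it stood at 1395, 1398, 1120, 1090, 827 and 950 CPM, and in air libraries 1 to 6 at 1203, 1556, 1369, 1386, 2822 and 2246 CPM. All 6 e-cigarette libraries lay below every smoke and every air library, while 4 of 6 smoke libraries lay below the lowest air library. The group means were 82.6 ± 116 CPM for e-cigarette, 1130 ± 231 CPM for smoke and 1764 ± 634 CPM for air (SD, n = 6 each). The fitted log2 fold change was -4.42 (SE 1.02) for e-cigarette against air, or 21.4-fold lower. It was -0.64 (SE 0.89) for smoke against air, and -3.77 (SE 0.99) for e-cigarette against smoke. Without e-cigarette library 3 it was -5.14 against air and -4.49 against smoke, and with voom and sample quality weights -6.04 against air and -5.45 against smoke. Among the e-cigarette libraries themselves Calca spanned 39 to 4373 counts, with libraries 1 and 3 far above the other 4. The 3 groups share 1 estimate of spread, so this range also enters the SE of smoke against air. With libraries 1 and 3 alone in the e-cigarette group, chosen after seeing the data, Calca in smoke against air was -0.67 (SE 0.2).

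Calcb did not follow Calca, its neighbour and close relative. It stood at 2.73, 4.52, 3.13, 0.648, 2.54 and 2.44 CPM in e-cigarette libraries 1 to 6. Smoke libraries had 1.13, 2.19 and 3.24 CPM as lowest, median and highest values. Air libraries had 2.29, 1.50, 21.9, 2.05, 2.79 and 3.51 CPM. The 3 groups overlapped, and air library 3 stood alone at 341 counts. The fold change was -1.08 (SE 0.60) on the log2 scale for e-cigarette against air, and 0.12 once air library 3 was left out. For smoke against air it was -1.38 (SE 0.60), and -0.18 without that library. For e-cigarette against smoke, which does not turn on it, it was 0.30 (SE 0.61). Calcb is therefore the member that did not share the fall in the e-cigarette group, by which the genes were in part chosen. It was not alone in its weak relation to Calca. Over air and smoke libraries Ret, Sez6l2 and Ptprn also had coefficients with Calca near or below 0, given further below. The 7 neuron markers summed to 10.8 CPM in air library 3, inside the air range of 6.02 to 11.8 CPM. The 25 genes of the neuron list summed to 129 CPM there, with an air range of 70.6 to 133 CPM. Single markers differed: Prph (25 counts), Scn10a (4) and Tubb3 (52) were highest there among air libraries, and Elavl4 (12) was lowest. Stmn2, Trpv1 and Slc18a3 were in between. What part neurons had in the Calcb level was not tested.

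Prepronociceptin (Pnoc), the precursor of the opioid-like peptide nociceptin, was far below Calca in level and lowest in the same e-cigarette libraries, 4 and 5. It stood at 1.42, 0.245, 1.23, 0, 0 and 0.414 CPM in e-cigarette libraries 1 to 6, which is 27, 4, 22, 0, 0 and 9 counts. A count of 0 allows up to 0.162 CPM in library 4 and 0.173 CPM in library 5, taking 3 counts as the limit of counting error alone. Smoke libraries had 11.6, 12.4, 10.9, 10.2, 6.44 and 8.80 CPM, and air libraries had 6.26, 9.02 and 11.7 CPM as lowest, median and highest values. Every e-cigarette library was below every smoke and air library, and smoke and air overlapped. The log2 fold change was -3.97 (SE 0.51) for e-cigarette against air, -4.16 (SE 0.51) for e-cigarette against smoke and 0.19 (SE 0.40) for smoke against air. With so few counts in the e-cigarette group, 27 and 22 of its 62 counts came from libraries 1 and 3. With voom and sample quality weights the values were -4.61 against air and -4.95 against smoke. With libraries 1 and 3 alone in the e-cigarette group, Pnoc in smoke against air was 0.17 (SE 0.18).

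**Figure D1:**
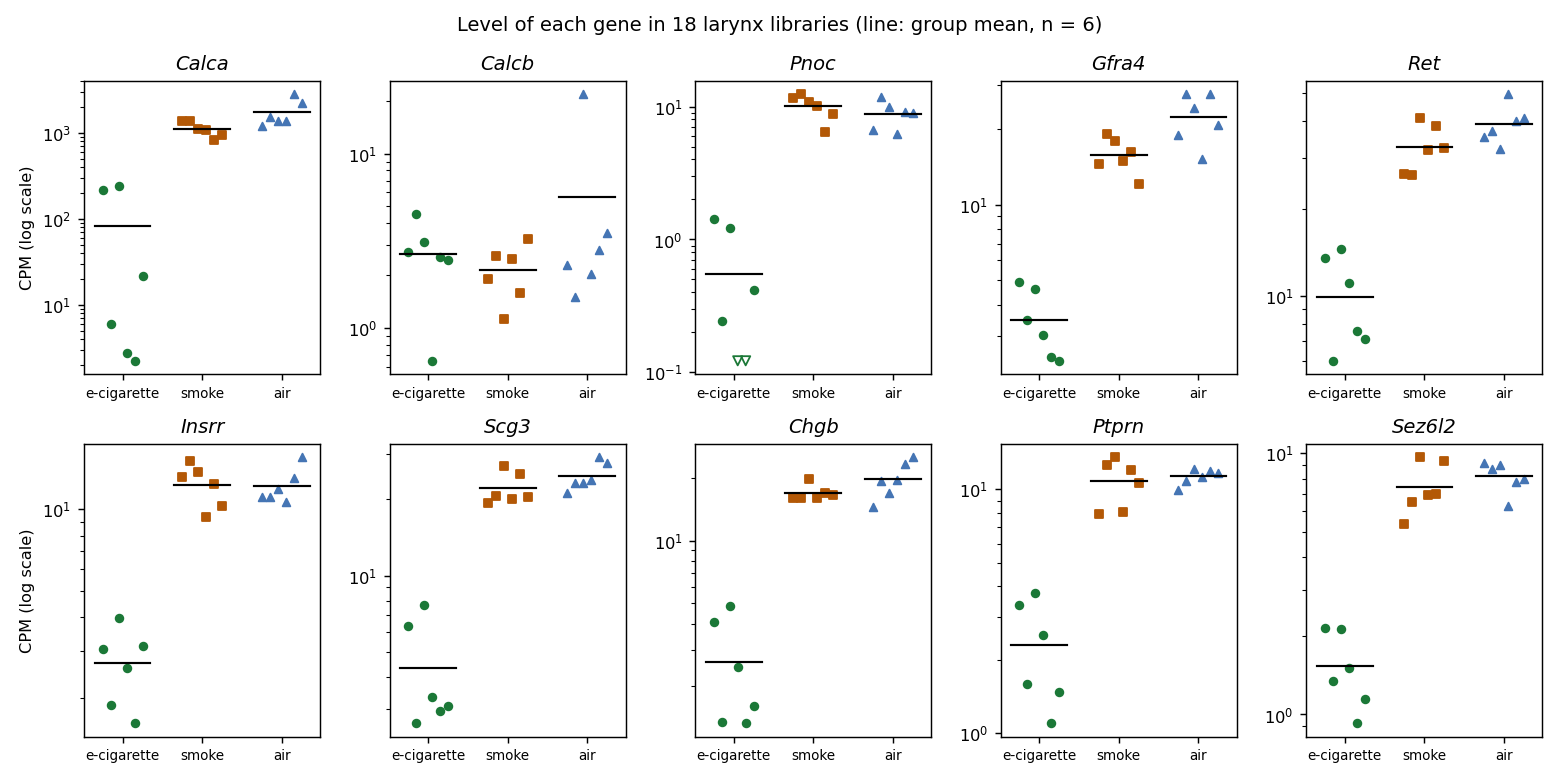
Level of each of the 10 genes in the 18 libraries, in CPM on a log axis, with e-cigarette, smoke and air groups from left to right; points are libraries, lines are group means (n = 6) and open triangles mark libraries with 0 counts. In 9 of 10 panels the e-cigarette points lie below all others, while the Calcb groups overlap and air library 3 stands alone at 21.9 CPM.

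RET and its co-receptor GFRA4 form the receptor through which persephin, a ligand of the glial cell line-derived neurotrophic factor (GDNF) family, acts, and Gfra4 is expressed in few tissues, the thyroid among them. Gfra4 stood at 4.93, 3.48, 4.64, 3.02, 2.48 and 2.39 CPM in e-cigarette libraries 1 to 6. In smoke libraries it stood at 14.5, 19.1, 18.0, 15.0, 16.2 and 12.1 CPM, and in air libraries at 18.9, 27.5, 24.4, 15.2, 27.5 and 20.8 CPM. The highest e-cigarette library was below the lowest of the other groups, and 3 of 6 smoke libraries were below all air libraries. The log2 fold change was -2.68 (SE 0.19) for e-cigarette against air, -2.18 (SE 0.19) for e-cigarette against smoke and -0.50 (SE 0.18) for smoke against air. A microRNA gene, Mir6973b, lies inside Gfra4 on the same strand.

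Ret stood at 13.5, 5.99, 14.5, 11.1, 7.56 and 7.14 CPM in e-cigarette libraries 1 to 6. In smoke libraries it stood at 26.4, 26.1, 41.2, 32.0, 38.5 and 32.3 CPM, and in air libraries at 35.5, 37.0, 32.2, 49.6, 40.1 and 41.2 CPM. Here too the e-cigarette libraries lay below all others, but within a narrower band than for Calca. Of the 6 smoke libraries, 3 were below all air libraries. In e-cigarette library 2 the Ret count equalled the Calca count, at 98 each, whereas Ret never exceeded 46.6 CPM per 1000 CPM of Calca in any smoke or air library. The log2 fold change was -1.98 (SE 0.20) for e-cigarette against air, the smallest fall of the 9 genes that lay wholly below air. It was -1.71 (SE 0.19) for e-cigarette against smoke and -0.26 (SE 0.19) for smoke against air.

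Insrr encodes a receptor tyrosine kinase of the insulin receptor family that senses alkaline pH. It stood at 3.04, 1.90, 3.97, 2.59, 1.62 and 3.13 CPM in e-cigarette libraries 1 to 6. Smoke libraries had 9.39, 12.8 and 15.0 CPM as lowest, median and highest values, and air libraries had 10.6, 11.5 and 15.6 CPM. The e-cigarette libraries were below all others, and smoke and air shared nearly 1 range. The log2 fold change was -2.17 (SE 0.19) for e-cigarette against air and -2.18 (SE 0.19) for e-cigarette against smoke. For smoke against air it was 0.01 (SE 0.17), with a sign that turned with the scaling and the tool. Pear1 overlaps Insrr on the opposite strand, and since the library kit does not mark strand their reads cannot be told apart in the shared part.

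Secretogranin III (Scg3) and chromogranin B (Chgb) are granins that help pack peptide hormones into dense-core granules. Scg3 stood at 6.34, 2.63, 7.66, 3.35, 2.94 and 3.08 CPM in e-cigarette libraries 1 to 6, against 19.4, 20.5 and 26.9 CPM as lowest, median and highest values in smoke libraries and 21.2, 23.6 and 29.3 CPM in air libraries. Chgb stood at 4.09, 1.35, 4.86, 2.48, 1.33 and 1.61 CPM in e-cigarette libraries. Chgb in smoke libraries stood at 16.0, 16.1, 19.8, 16.1, 16.9 and 16.5 CPM, and in air libraries at 14.6, 19.4, 16.9, 19.5, 23.4 and 25.1 CPM. For both granins the e-cigarette libraries lay below all others, and smoke overlapped air. Of the 6 smoke libraries, 4 lay below all air libraries for Scg3 and 0 for Chgb. The log2 fold change of Chgb was -2.92 (SE 0.27) for e-cigarette against air, -2.68 (SE 0.26) for e-cigarette against smoke and -0.23 (SE 0.24) for smoke against air. For Scg3 these were -2.51 (SE 0.22), -2.35 (SE 0.22) and -0.16 (SE 0.20).

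Ptprn encodes IA-2, a transmembrane protein of dense-core granules and a known autoantigen in type I diabetes. It stood at 3.36, 1.59, 3.74, 2.54, 1.10 and 1.47 CPM in e-cigarette libraries, against 7.91, 11.4 and 13.6 CPM as lowest, median and highest values in smoke libraries and 9.98, 11.5 and 12.2 CPM in air libraries. The air libraries of Ptprn were the most alike of all 10 genes, with an SD of 7.09% of the mean. Sez6l2, a seizure-related membrane protein of neurons, stood at 2.15, 1.35, 2.12, 1.51, 0.924 and 1.15 CPM in e-cigarette libraries, against 5.36, 6.96 and 9.68 CPM in smoke libraries and 6.32, 8.35 and 9.20 CPM in air libraries. Both genes were below all other libraries in each e-cigarette library, and smoke libraries fell on either side of the air range. The log2 fold change of Ptprn was -2.29 (SE 0.24) for e-cigarette against air, -2.23 (SE 0.24) for e-cigarette against smoke and -0.07 (SE 0.22) for smoke against air. For Sez6l2 these were -2.41 (SE 0.20), -2.28 (SE 0.20) and -0.13 (SE 0.18). The antisense gene Gm28294 overlaps Ptprn, Gm21984 overlaps Sez6l2 and Gm37871 overlaps Scg3, so reads in the shared parts are uncertain.

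Over the 10 genes, 9 had an adjusted p below 0.05 in edgeR's quasi-likelihood test of e-cigarette against air, all lower, where 13.0% of all 17537 tested genes were called lower. The same 9 had all e-cigarette libraries below all air libraries, which held for 6.00% of the tested genes. These counts come from the contrast that chose the genes and support nothing by themselves. Their median log2 fold change was -2.46 (range -4.42 to -1.08), beside 0.01 over all tested genes. Against smoke, 9 of 10 were called lower (10.4% of tested genes) with a median of -2.25, and the same 9 lay wholly below smoke (6.65% of tested genes). In smoke against air none of the 10 was called by edgeR, where 1.59% of tested genes were called in either direction and 0.616% lower, and none lay wholly below air (0.890%). At an unadjusted p below 0.05 edgeR had 2 of the 10, both lower, and DESeq2 and voom with sample quality weights called 0 each after adjustment. The share of all tested genes at that unadjusted limit was not counted, so nothing is read from the 2. The 3 comparisons share their groups pairwise, so their values are not independent.

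**Figure D2:**
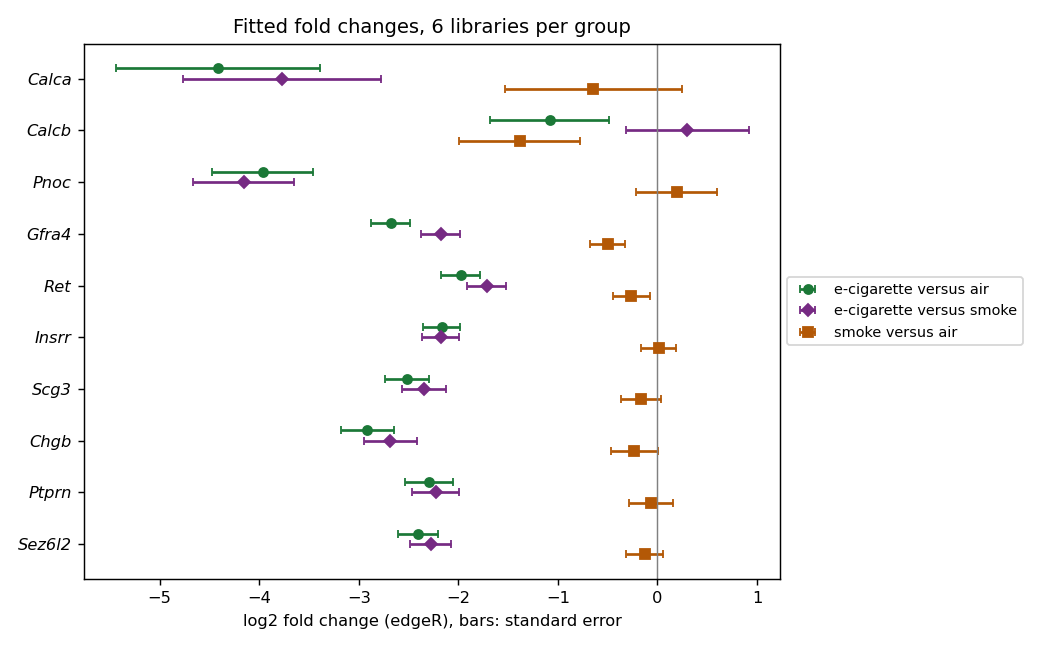
Fitted log2 fold change of each gene (horizontal axis) in edgeR for e-cigarette against air, e-cigarette against smoke and smoke against air, with bars for the standard error and 6 libraries per group. Calca and Pnoc lie farthest to the left with the widest bars of the 9 genes that fell, the other 7 lie between -2.92 and -1.71 in the e-cigarette comparisons, and the Calcb bars are wide on both sides.

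Levels between genes were compared per length of transcript. In air libraries Calca averaged 1047 CPM per kb, and the rest ran from Gfra4 at 10.3 through Scg3 at 9.04, Chgb at 7.23, Ret at 5.81, Calcb at 4.48, Pnoc at 4.07, Ptprn at 2.66 and Insrr at 2.14 to Sez6l2 at 1.94 CPM per kb. The place of Calcb there rests on air library 3, without which it averaged 1.92 CPM per kb and came last. The ranges over libraries overlapped between 7 of the 9 neighbours in that order in air, the exceptions being Calca above Gfra4 and Pnoc above Ptprn. In e-cigarette libraries Calca averaged 49.0, Calcb 2.11 and Gfra4 1.61 CPM per kb, and Pnoc came last at 0.255 CPM per kb, with all 9 neighbours overlapping. In smoke libraries Calca averaged 671 CPM per kb, Scg3 led the rest at 8.07 and Calcb was last at 1.70 CPM per kb, with 8 of 9 neighbours overlapping.

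The e-cigarette libraries differed in how much of each gene was left. In libraries 1 and 3 Calca was at 12.4% and 13.9% of the air mean, Ret at 34.5% and 37.0% and Gfra4 at 22.0% and 20.7%. In libraries 4 and 5 Calca was at 0.159% and 0.128% of the air mean and Pnoc had no count. The other genes that lay below air kept a far larger part in those same libraries. Ret was at 28.2% and 19.3%, Insrr at 21.2% and 13.2%, Ptprn at 22.4% and 9.70% and Sez6l2 at 18.5% and 11.3%. Gfra4 was at 13.5% and 11.1%, Scg3 at 13.5% and 11.9% and Chgb at 12.5% and 6.70%. These levels rest on 16 to 205 counts per gene and library.

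Relative to Calca, the other genes were therefore not a fixed set. Ret had 59.5 to 3942 CPM per 1000 CPM of Calca in e-cigarette libraries, against 18.7 to 46.6 in smoke libraries and 14.2 to 35.8 in air libraries. Gfra4 had 19.0 to 1103 in e-cigarette libraries, against 10.4 to 19.6 in smoke and 9.26 to 17.8 in air. Pnoc had 6.49, 40.8, 5.03, 0, 0 and 19.0 CPM per 1000 CPM of Calca in e-cigarette libraries 1 to 6, against 7.78 to 9.70 in smoke and 3.25 to 7.54 in air. E-cigarette libraries 1 and 3 were thus inside the air range and libraries 2 and 6 above all air and smoke libraries. The 0 counts allow up to 57.7 and 76.9 in libraries 4 and 5, so these 2 place Pnoc neither above nor below. These ratios are not corrected for length and only follow 1 gene across libraries.

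**Figure D3:**
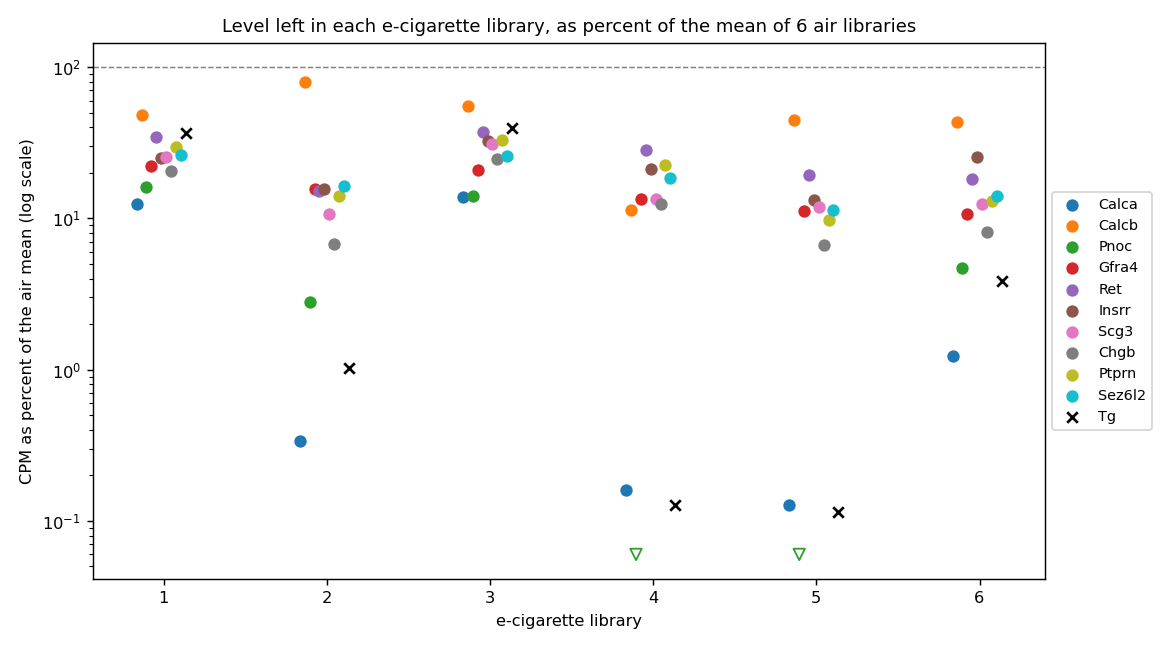
Level left in each of the 6 e-cigarette libraries as percent of the mean of the 6 air libraries (log axis), for the 10 genes and for the follicle cell gene Tg; the dashed line marks 100% and open triangles mark 0 counts. In libraries 2, 4, 5 and 6 Calca lies near Tg or below it, Pnoc is low or at 0, and Ret, Insrr, Gfra4, Scg3, Chgb, Ptprn and Sez6l2 stay between 6.70% and 28.2%.

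Thyroid follicle cells make thyroid hormone on thyroglobulin (Tg), and in the e-cigarette libraries Tg was low where Calca was low. Tg stood at 36.5%, 1.03%, 39.8%, 0.128%, 0.115% and 3.86% of the air mean in e-cigarette libraries 1 to 6. The 5 follicle markers, with Tg among them, summed to 88.2 to 29070 CPM in e-cigarette libraries, against 57580 to 95120 CPM in smoke libraries and 56330 to 98220 CPM in air libraries. None of the 5 was at 0 in any library. The 8 C cell markers, Calca, Gfra4, Ret, Chga, Scg2, Syt4, Snap25 and Pcsk2, summed to 28.5 to 342 CPM in e-cigarette libraries, against 1227 to 3071 CPM in smoke and 1759 to 5581 CPM in air. Chromogranin A (Chga), which parathyroid chief cells also make, supplied 3936 of the 5581 CPM in air library 3. For 6 of the 8 all e-cigarette libraries lay below all air libraries, which held for 6.00% of all tested genes. Calca, Gfra4 and Ret are among the members chosen on this contrast, so nothing is read from that count. The markers that overlapped air were Syt4, with e-cigarette library 3 inside the air range, and the synaptic gene Snap25. Snap25 averaged 8.28 CPM in e-cigarette, 9.69 CPM in smoke and 8.27 CPM in air libraries. None of the 8 was at 0 in any library, e-cigarette libraries 4 and 5 included, where Calca had 52 and 39 counts beside 205 and 131 counts of Ret. In whole tissue, fewer cells of a type and less RNA per cell cannot be told apart.

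Calca per 1000 CPM of Tg was 8.23, 8.05, 8.47, 30.3, 27.0 and 7.80 CPM in e-cigarette libraries 1 to 6. It was 18.6, 24.5, 12.4, 16.8, 8.76 and 15.9 CPM in smoke libraries and 20.0, 25.2, 19.7, 14.3, 50.9 and 24.6 CPM in air libraries. In e-cigarette libraries 1, 2, 3 and 6 the ratio was below every smoke and air library, and in libraries 4 and 5 it was inside the air range. How much thyroid tissue each larynx brought along was not recorded in the labels, and its part in the fall of the C cell genes was not tested apart from the following fit. A score of 14 follicle genes ran from -1.95 to -0.06 in e-cigarette libraries and from 0.32 to 0.85 in air libraries, with no overlap, so thyroid content and exposure cannot be told apart. With that score as a covariate, 5 of the 10 were called lower in e-cigarette against air, where 0.0969% of tested genes were called lower. The genes were chosen on this contrast, and nothing is read from that count or the next. They were Gfra4 at -2.18 (SE 0.32), Chgb at -2.01 (SE 0.36), Sez6l2 at -1.91 (SE 0.34), Scg3 at -1.66 (SE 0.28) and Insrr at -1.57 (SE 0.29). The log2 fold changes of Calca at -1.17 (SE 0.61), Pnoc at -1.49 (SE 0.57), Ret at -1.49 (SE 0.31) and Ptprn at -1.66 (SE 0.37) did not pass there. Against smoke 0 of all tested genes passed in that fit, or 0%, and the log2 fold changes of these 9 members ran from -1.91 for Pnoc to -0.80 for Calca.

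E-cigarette libraries 1 and 3 held the most thyroid RNA of their group, with Tg at 2.69% and 2.77% of all counts, against 5.87% to 9.24% in smoke libraries and 6.13% to 10.2% in air libraries. With these 2 alone in the group, an alternative chosen after seeing the data, 9 of the 10 were called lower against air, where 2.43% of tested genes were called lower. These 2 libraries also entered the choice of the genes, so the count is a description. Calca then had a log2 fold change of -2.95 (SE 0.34), Pnoc of -2.74 (SE 0.32), Gfra4 of -2.24 (SE 0.25) and Chgb of -2.17 (SE 0.21). Calcb stood at -0.96 (SE 0.93). In those 2 libraries Tg was at 36.5% and 39.8% of its air mean while Calca was at 12.4% and 13.9%.

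**Figure D4:**
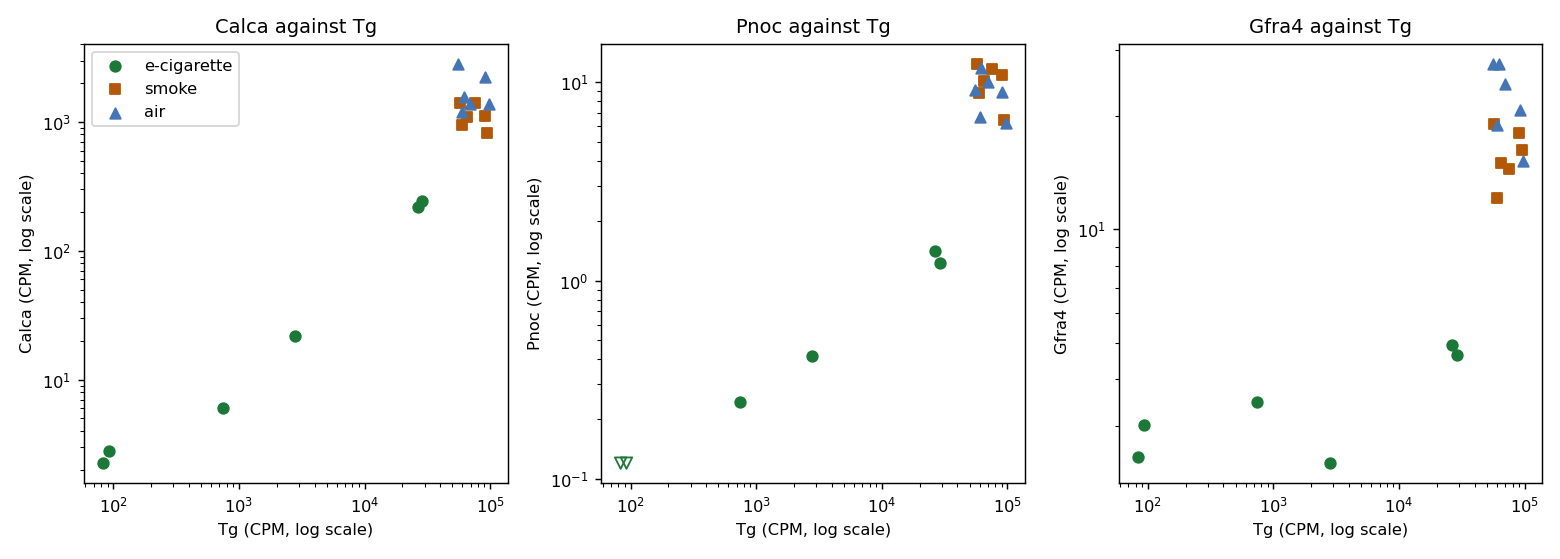
Calca, Pnoc and Gfra4 (vertical axes, CPM on log scales) against the follicle gene Tg (horizontal axis, CPM on a log scale) in the 18 libraries, with e-cigarette, smoke and air libraries marked by shape and open triangles for 0 counts. Across the e-cigarette libraries Calca and Pnoc climb with Tg, while Gfra4 stays between 2.39 and 4.93 CPM from the lowest to the highest Tg.

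Within groups the genes followed Calca to different degrees, measured on log2 CPM over 6 libraries and given as a description. In e-cigarette libraries Pnoc had a Pearson coefficient of 0.97 and a Spearman coefficient of 0.94 with Calca, and 0.94 (Pearson) without libraries 1 and 3, the farthest from the median of Calca. The libraries left held only 4, 0, 0 and 9 counts of Pnoc. Insrr had 0.82 and 0.89, and 0.70 without libraries 1 and 3. Those of Scg3, Gfra4 and Ret rested on the same 2 libraries. Scg3 had 0.90 and 0.71, but -0.10 without them; Gfra4 had 0.79 and 0.60, but -0.27; Ret had 0.69 and 0.54, but -0.44. In smoke libraries Pnoc had 0.94 and 1, and 0.93 without the 2 farthest, while Ret had -0.74 and -0.66. In air libraries Scg3 had 0.97 and 0.94, and 0.75 without the 2 farthest. Chgb had 0.88 and 0.89, and 0.88 without them, and Pnoc had 0.33 and 0.26, and 0.71 without them. Calcb had Pearson coefficients of 0.37, 0.08 and -0.12 in e-cigarette, smoke and air libraries, and 0.35 in e-cigarette libraries without the 2 farthest. For comparison, Calca and Tg had 0.98 in e-cigarette libraries, -0.41 in smoke and -0.12 in air. Pnoc and Tg had 0.996 in e-cigarette libraries, and 0.992 without the 2 farthest, -0.48 in smoke and -0.40 in air. In e-cigarette libraries Pnoc thus followed Tg as closely as Calca.

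**Figure D5:**
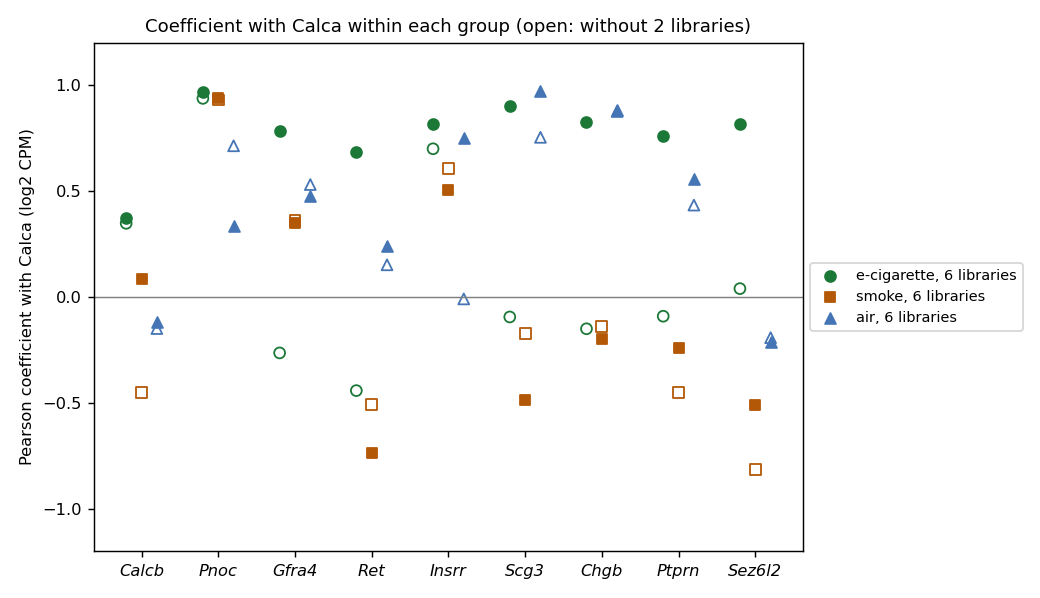
Pearson coefficient of each gene with Calca on log2 CPM (vertical axis) within the e-cigarette, smoke and air groups of 6 libraries, with open symbols after leaving out the 2 libraries farthest from the median of Calca. Pnoc stays above 0.9 in the e-cigarette and smoke groups with and without them, whereas the e-cigarette symbols of Gfra4, Ret, Scg3, Chgb and Ptprn drop below 0. The open e-cigarette symbol of Pnoc rests on libraries with 0 to 9 counts.

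Among 15212 tested protein-coding genes, the genes most like Calca over the 18 libraries centred on their group means were Ager, Folr1, Iyd, Napsa, Sall1, Tnfrsf9, Scg5, Dio1, Ooep and Slc26a7, with Pearson coefficients of 0.96 to 0.98. Iyd, Dio1 and Slc26a7 are genes of iodide and thyroid hormone handling in follicle cells, and Scg5 encodes a chaperone of the prohormone convertase PCSK2. Without centring, Napsa, Ager, Dio1, Tnfrsf9, Scg5, Sall1, Plekhd1, Folr1, Kcnh3 and Slc26a7 came first, where the difference between groups enters the measure. On the centred measure Pnoc ranked at position 20, Scg3 at 79, Chgb at 104, Insrr at 167, Ptprn at 226, Gfra4 at 331, Sez6l2 at 418, Ret at 525 and Calcb at 4356. Pnoc thus came first of the set on this measure, while within the air libraries Scg3, Chgb, Insrr, Ptprn and Gfra4 had higher Pearson coefficients with Calca. Without the 2 air libraries farthest from the median of Calca, only Chgb at 0.88 and Scg3 at 0.75 were above Pnoc at 0.71. Insrr was then at -0.01, Ptprn at 0.43 and Gfra4 at 0.53. Over the 12 air and smoke libraries, centred alike, the coefficients with Calca were lower than over all 18. Chgb had 0.65, Insrr 0.60, Pnoc 0.55, Gfra4 0.435, Scg3 0.36, Ptprn 0.02, Calcb -0.08, Ret -0.18 and Sez6l2 -0.33. Tg had -0.22 with Calca there, beside 0.955 over all 18. Ager averaged 31.4 ± 39.7 CPM in e-cigarette libraries, 218 ± 34.4 CPM in smoke libraries and 276 ± 39.9 CPM in air libraries (SD, n = 6 each).

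Promoters are shown as examples for the granin genes and for Calca, which lay below every smoke and air library in each e-cigarette library and hold letters of a known element. Gfra4 and Ptprn, whose windows are not printed, share both traits. RefSeq windows on GRCm38.p6, 250 bases before to 50 after a gene's start, were at hand for 5 of the 10 genes, in 7 windows: Calca, Chgb, Scg3, Gfra4 and Ptprn. The cyclic AMP response element (CRE), TGACGTCA, and its core TGACG, which is part of it, and the E-box CAGCTG were searched on both strands. Capitals mark their letters.

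Calca promoter, chr7:114636308-114636607, minus strand: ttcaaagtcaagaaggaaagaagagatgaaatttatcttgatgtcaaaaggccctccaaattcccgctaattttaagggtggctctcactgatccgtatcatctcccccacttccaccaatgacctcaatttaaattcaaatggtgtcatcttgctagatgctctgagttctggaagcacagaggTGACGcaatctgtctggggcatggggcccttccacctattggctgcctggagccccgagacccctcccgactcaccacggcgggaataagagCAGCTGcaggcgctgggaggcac
Chgb promoter, chr2:132781392-132781691, plus strand: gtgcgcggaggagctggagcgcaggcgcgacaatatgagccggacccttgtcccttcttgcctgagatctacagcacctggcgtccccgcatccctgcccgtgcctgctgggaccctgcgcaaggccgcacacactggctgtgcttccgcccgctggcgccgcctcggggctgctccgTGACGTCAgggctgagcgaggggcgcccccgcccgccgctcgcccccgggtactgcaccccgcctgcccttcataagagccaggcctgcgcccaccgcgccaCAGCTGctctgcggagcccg
Scg3 promoter, chr9:75684007-75684306, minus strand: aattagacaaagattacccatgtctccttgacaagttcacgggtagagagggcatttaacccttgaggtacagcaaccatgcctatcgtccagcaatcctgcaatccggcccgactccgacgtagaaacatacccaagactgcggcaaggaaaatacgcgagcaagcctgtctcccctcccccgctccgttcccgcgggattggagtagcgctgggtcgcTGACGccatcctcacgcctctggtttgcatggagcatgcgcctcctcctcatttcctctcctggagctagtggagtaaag

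The core TGACG was present in a window of each of the 5 genes, or in 5 of their 7 windows, and in 20.8% of all 32851 windows. In Calca it began at base -65 from the start, in Scg3 at -30. The full CRE was present in the Chgb window, from base -72, and in 1.79% of all windows. The E-box CAGCTG was present in Calca, Chgb and Gfra4 windows, or in 3 of the 7, and in 16.3% of all windows. Of the other letters searched, CAAGTG, the core of the NK2 class of homeodomain factors, was in no window of the 5 genes and in 13.6% of all windows. The RE1 element is bound by REST, a repressor of neuronal genes. Its left part TCAGCACC was in no window of the 5 genes and in 1.65% of all windows, and its right part GGACAG was in a Gfra4 window and in 22.2% of all windows.

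Other genes of the same pathways were taken from lists chosen with earlier results of these data known, and their counts stand beside 25.1% of all tested genes called in either direction and 13.0% called lower. The median log2 fold change over all tested genes was 0.01. Of 10 tested granins and prohormone processing genes, 7 fell in e-cigarette against air and 3 (Cpe, Pam and Ptprn2) were not called, with a median log2 fold change of -3.01. The convertases that cut prohormones fell: Pcsk1 averaged 4.31 CPM in e-cigarette and 21.3 CPM in air libraries (log2 fold change -2.30, SE 0.24), and Pcsk2 averaged 6.60 CPM in e-cigarette and 56.2 CPM in air libraries (-3.09, SE 0.36). Pcsk1n, whose product inhibits PCSK1, fell by 2.93 (SE 0.37). Chga fell by 7.72 (SE 1.53), but it is also a gene of parathyroid chief cells. It ranged from 21.0 to 3936 CPM in air libraries, where the 3 parathyroid markers Pth, Gcm2 and Casr summed to 16.4 to 3823 CPM, and its share from either gland was not tested.

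Of 21 tested genes of regulated exocytosis, 6 fell and 1 rose, with a median of -0.28. Beside these and the next 2 lists stand 25.1% of all tested genes called in either direction and 13.0% lower. Complexin 2 (Cplx2), a clamp on vesicle fusion, averaged 19.6 CPM in e-cigarette and 88.3 CPM in air libraries (-2.18, SE 0.24), with no overlap. Unc13a (-0.56, SE 0.11), whose product primes vesicles, fell less, and Rab3d rose by 0.32 (SE 0.11). Of 10 tested neuroendocrine transcription factors 5 fell and none rose, with a median of -0.59. Insm1 averaged 1.03 CPM in e-cigarette and 3.84 CPM in air libraries (-1.88, SE 0.27), and Myt1 averaged 0.274 CPM in e-cigarette and 1.22 CPM in air libraries (-2.14, SE 0.36). Among 11 other C cell and neuroendocrine genes 5 fell and 2 rose, with a median of -0.04. Those that rose were Tph1, by 0.95 (SE 0.24), and Ncam1, by 0.43 (SE 0.15). Somatostatin (Sst), a hormone some C cells also make, averaged 0.436 CPM in e-cigarette and 3.13 CPM in air libraries (-2.83, SE 0.45). The decarboxylase Ddc fell by 1.39 (SE 0.23), and the calcium channel gene Cacna1d by 1.04 (SE 0.18).

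Of 12 tested GDNF family ligands, co-receptors and RET adaptors, 3 fell and 1 rose, beside 25.1% of all tested genes called in either direction, with a median of -0.07. Artemin (Artn), the ligand of GFRA3, averaged 4.07 CPM in e-cigarette and 12.0 CPM in air libraries (-1.55, SE 0.26), and the adaptor Dok1 fell by 0.42 (SE 0.12). Air libraries had 8.19, 9.70 and 23.6 CPM of Artn as lowest, median and highest values. Gfra1, the co-receptor for GDNF, rose by 0.64 (SE 0.18), with all 6 e-cigarette libraries, at 14.6 to 20.0 CPM, above all air libraries, at 7.74 to 14.0 CPM. Persephin itself (Pspn) was too low to test, at 0.0823 CPM in e-cigarette and 0.207 CPM in air libraries. Of 8 tested calcitonin family ligands and receptors, 2 fell and 1 rose. The accessory protein gene Ramp3 fell by 2.42 (SE 0.36) and the ligand gene Adm2 by 2.73 (SE 0.52), while Ramp1, the partner of the CGRP receptor, rose by 0.56 (SE 0.12).

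Smaller families had few testable genes. The counts of this paragraph stand beside 25.1% of all tested genes called in either direction and 13.0% called lower. Nothing is read from the counts of the insulin receptor family and the neuron genes. Proenkephalin (Penk), the 1 tested gene of the opioid family beside Pnoc, rose by 1.14 (SE 0.28), with 75.6 CPM in e-cigarette and 34.3 CPM in air libraries. Of 5 insulin receptor family genes and substrates 1 fell, Irs4, by 3.26 (SE 0.51). Sez6l fell by 0.98 (SE 0.33). Of 14 follicle genes 11 fell, among them Nkx2-1 by 2.13 (SE 0.30), Hhex by 2.93 (SE 0.44) and Tshr by 2.37 (SE 0.38), and 1 rose, the anion exchanger gene Slc26a4. Tg itself, at -2.88 (SE 1.09), and Duox2 were not called. All 5 parathyroid genes fell, and Pth was at 2.34 CPM in e-cigarette and 1868 CPM in air libraries on average. Single libraries of the other groups were as low as the e-cigarette range of 0 to 6.03 CPM, with 0.128, 0.0563 and 5.68 CPM in smoke libraries 1, 3 and 6 and 2.34 CPM in air library 4. Of 17 tested peripheral neuron genes 1 fell, Elavl4, and 2 rose, Nos1 and Stmn2. The 7 neuron markers summed to 7.32 to 12.6 CPM in e-cigarette libraries, against 7.27 to 11.4 CPM in smoke and 6.02 to 11.8 CPM in air libraries and overlapped between all groups.

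Over all 12 lists, edgeR called 47 of 115 tested genes lower and 9 higher in e-cigarette against air. Of all tested genes 25.1% were called there in either direction and 13.0% lower. In e-cigarette against smoke edgeR called 42 lower and 1 higher (Gfra1, at 0.55, SE 0.18), beside 16.5% of all tested genes in either direction and 10.4% lower. In smoke against air it called 0 of the 115, beside 1.59% in either direction. There 14 were higher and 7 lower at an unadjusted p below 0.05, a limit at which the share of all tested genes was not counted. DESeq2 called 2 higher and 1 lower there, and voom with sample quality weights called 5 higher.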

How the data were processed

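Whole larynges of 18 samples were measured by mRNA sequencing, and the authors deposited raw counts per gene and library in 1 table. The library kit, per the labels' protocols, keeps no strand information. The tools named in the submitters' processing notes are STAR, without a version, and featureCounts 1.5.0-p3, and the builds are GRCm38 and mm10. Strand setting and annotation release: not given in the sources used here. Gene coordinates are as deposited.

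After edgeR's filterByExpr (at least 10 counts, at least 15 in total) 17537 genes remained. All 3 groups entered 1 quasi-likelihood model (edgeR 4.0.16 in R 4.3.3, robust, TMM scaling) without covariates. Benjamini-Hochberg adjustment ran over every tested gene. A gene "rose", "fell" or was "called" at an adjusted p below 0.05. CPM uses TMM-scaled library sizes, coefficients use log2 CPM with a prior count of 2, and levels per kb use the deposited gene length. The fit was tested on simulated data. Within groups, 45 pairs of libraries differed beyond sampling noise, with a chi-square of 15.4 to 134 per degree of freedom.

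The members and lists (12 lists, 139 genes) were chosen with earlier results of these data known. Each list names up to 3 called genes with the smallest p, plus Tg and Pth, and some genes that this rule takes in are not reported here. Pspn, Chga, Cpe, Pam, Ptprn2, Rab3d, Slc26a4, Duox2, Snap25, Syt4, Ncam1, Prph, Scn10a, Tubb3, Trpv1, Slc18a3 and the genes that other tools called in smoke against air were named after their values were seen. The alternatives used DESeq2 1.42.0, limma 3.58.1 (voom with sample quality weights), RLE or upper quartile scaling, other filters, only the 2 compared groups, a replicate block, a thyroid follicle score as covariate, and the removal of each library.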

Additional observations from a re-analysis of the deposited data

Results flagged for a closer look

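Calcb in air library 3 stood at 21.9 CPM, far from the next air library at 3.51 CPM, a gap of 0.901 of the whole range of the 6 air libraries. Chgb in smoke library 3 stood at 19.8 CPM with the next smoke library at 16.9 CPM, a gap of 0.781 of the range. Both gaps passed the 95% critical value of Dixon's test for 6 libraries. Of 30 combinations of gene and group that were checked these 2 passed, and chance alone passes about 1 in 20.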

How the results depend on the processing

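The 9 members called lower in e-cigarette against air, and against smoke, stayed at 9 without any 1 library and under the other tools, scalings, filters, the replicate block and e-cigarette libraries 1 and 3 alone. The exception was the thyroid follicle score as a covariate, which left 5 against air and 0 against smoke, and 25 and 0 genes in all, against 4406 and 2897 without it. Those 2 libraries alone, an alternative chosen after seeing the data, gave 688 genes against air and 147 against smoke. For smoke against air, 279 genes were called, but 970 with DESeq2, 1120 with voom, 184 without a filter, 109 with the 2 groups alone, 163 with e-cigarette libraries 1 and 3 alone and 50 to 562 without 1 library. The replicate block gave 39, 3836 and 2386 genes for smoke against air, e-cigarette against air and e-cigarette against smoke. Equal numbers did not pair the samples: 3 of 18 correlations of deviations were over 0.1, and 1 of 36 was best with its own number.

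Directions turned for 3 values. Calcb in e-cigarette against air ran from -1.29 to 0.12 without 1 library, and Ptprn in smoke against air from -0.14 to 0.0091. Insrr in smoke against air ran from -0.068 to 0.079 without 1 library. It was -0.012 with DESeq2, -0.063 with voom, -0.012 with RLE and -0.0080 with upper quartile scaling. It was -0.014 without a filter, -0.0017 at a mean of at least 1 CPM, -0.0055 with the 2 groups alone and -0.014 with e-cigarette libraries 1 and 3 alone. The cause was not tested. Depth limits Pnoc, Sez6l2 and Ptprn, with 0 to 27, 16 to 41 and 19 to 67 counts in e-cigarette libraries.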

Other observations

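In smoke against air, other tools called a few genes of the lists that edgeR did not. With DESeq2, Tph1, the first enzyme of serotonin synthesis outside the brain, was higher at 0.75 on the log2 scale, Piezo2, a mechanosensitive ion channel, was higher at 0.82, and Artn was lower at -0.87. With voom and sample quality weights, Tph1 was higher at 1.01, Penk at 0.91, Cacna1c at 0.59, Calcrl at 0.46 and Rab3d at 0.35. In edgeR Tph1 averaged 3.40 CPM in smoke and 1.99 CPM in air libraries (log2 fold change 0.77, SE 0.24, adjusted p = 0.0853), with 5 of 6 smoke libraries above all air libraries. Tph1 was not particular to smoke: edgeR called it higher in e-cigarette against air at 0.95 (SE 0.24). It was not called in e-cigarette against smoke, at 0.17 (SE 0.23). Artn averaged 6.67 CPM in smoke and 12.0 CPM in air libraries (-0.84, SE 0.25, adjusted p = 0.0817), with 5 of 6 smoke libraries below all air libraries. Its air mean was drawn up by the highest value, with 8.19, 9.70 and 23.6 CPM as lowest, median and highest. With voom and sample quality weights Artn was at -0.56 and was not called.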
